A study of Capra hircus with 12 samples.

Results

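The miR-379/miR-410 cluster is a large group of microRNA (miRNA) genes of the imprinted DLK1-DIO3 region, and its mature miRNAs were described here in the embryonic skin of the cashmere goat (Capra hircus). The rule uses names and no measured value. Members are the small RNAs listed under a sheep miRNA name that carries 1 of 35 numbers assigned to the cluster, with any letter and either hairpin arm. Of the 649 small RNAs in the deposited table, 79 met this rule. They belong to 42 hairpin names and cover 32 of the 35 numbers, since no form of miR-300, miR-656 or miR-889 is listed. Outside the rule are 72 with another sheep miRNA name and 498 that carry only a locus label. The sheep names were checked against the goat RefSeq annotation (ARS1.2), in which 35 of the 42 hairpins have an entry of the same name on chromosome 21. All 35 lie after DLK1 and RTL1 and before DIO3, with miR-379 first and with only miR-3958 and miR-3959 as further miRNA entries between them. The last is miR-323b, which follows miR-410. Coordinates are not printed because the build behind the files is not given in the sources used here. Imprinting itself was not measured.

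Small RNA was sequenced from skin at embryonic days 45 (E45), 55 (E55) and 65 (E65), stages that the study chose around the start of hair follicle formation. For each stage the skin of 3 embryos was mixed before RNA extraction, so each stage is 1 pooled library. The skin came from the mid flank of Inner Mongolia cashmere goat embryos, and no treatment or genotype separates the stages. As recovered from the deposited values, the read total behind the scaling was 2455491 in the E45 library, 4125742 in the E55 library and 2344798 in the E65 library. Levels are reads per 1000000 reads of that total (RPM), and 3 reads correspond to 1.22, 0.727 and 1.28 RPM in the 3 libraries. With 1 library per stage there is no estimate of the spread between embryos, no test was possible, and every ratio below compares libraries. The 95% intervals in brackets are exact binomial ones and cover counting error only, and amplified reads are not independent molecules. A lower level in whole skin can mean fewer cells that make the miRNA or less of it per cell, which these data cannot tell apart. Sequencing was on a GAIIx and on a second, NextSeq instrument, and the protocol does not assign libraries to them, so instrument and stage cannot be told apart either.

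A miRNA is cut from a hairpin precursor, whose left and right arms give the 5p and 3p mature forms. Usually the arm that is loaded into an Argonaute protein accumulates, and its bases 2 to 8, the seed, do most of the pairing with target mRNAs. In mammals the hairpins of this cluster are made from long transcripts of the maternal chromosome, together with the neighbouring non-coding RNAs of the region, and they are known for abundant expression in embryonic tissue, placenta and brain. Members made from one transcript can still differ in level, because each hairpin is processed and each mature form is degraded separately.

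The sequences below are those the results turn on, read from the deposited table and printed 5′ to 3′ with T for U and with the seed in capitals. The first 5 are the most abundant members, and none of them shares a seed with another member.
miR-411a-5p: aTAGTAGAccgtatagcgtacg
miR-409-5p: aGGTTACCcgagcaactttgcat
miR-369-3p: aATAATACatggttgatcttt
miR-494-3p: tGAAACATacacgggaaacctct
miR-379-5p: tGGTAGACtatggaacgtaggc
The next 5 stood out for a difference between libraries in at least 1 comparison described below.
miR-381-3p: aTATACAAgggcaagctctct
miR-655-3p: aTAATACAtggttaacctctct
miR-377-3p: aTCACACAaaggcaactttcgt
miR-410-3p: aATATAACacagatggcctgt
miR-1197-3p: tAGGACACatggtctacttct
The last set shows how seeds recur within the cluster. The first pair below has the seed ATGTAAC, the second pair GGTCGAC and the trio TCATAGA.
miR-379-3p: tATGTAACatggtccactaact
miR-411a-3p: tATGTAACacggtccactaac
miR-411b-5p: tGGTCGACcataaaacgtacgt
miR-412-3p: tGGTCGACcagttggaaagtaat
miR-376a-3p: aTCATAGAggaaaatccacgt
miR-376b-3p: aTCATAGAggaaaatccatgt
miR-376d: aTCATAGAggaaaatccacat

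Together the 79 miRNAs made up 12.4% [12.376, 12.458] of listed reads in the E45 pool. Their share was 18.6% [18.608, 18.683] at E55 and 11.7% [11.618, 11.701] at E65. Their summed level was 124170 RPM at E45, 186456 RPM at E55 and 116596 RPM at E65. The cluster was thus highest in the E55 pool, 1.50 times its sum at E45 [1.495, 1.508], and it then stood at 0.625 times the E55 sum at E65 [0.623, 0.628]. From E45 to E65 the ratio of the sums was 0.939 [0.934, 0.944], but it turned to 1.24 once the libraries were scaled to a common median over all listed small RNAs. The median member stood at 99.8, 123 and 63.5 RPM, a similar course at a far lower level.

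A few members held most of these reads. miR-411a-5p alone was measured at 46673 RPM at E45, 82954 RPM at E55 and 48707 RPM at E65, and it ranked 3, 3 and 5 among all 649 listed small RNAs. That was 37.6, 44.5 and 41.8% of the cluster's reads. Without it the cluster's sum was 77497, 103502 and 67889 RPM, so the E55 library was still the highest, at 1.34 times E45 and with E65 at 0.656 times E55. The 5 most abundant members of each library held 72.4, 75.9 and 78.8% of its cluster reads. At the other end, 22, 21 and 28 members were under 10 RPM, and 10, 6 and 15 were at or under 3 reads, among them 4, 2 and 5 listed at 0.

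**Figure D1:**
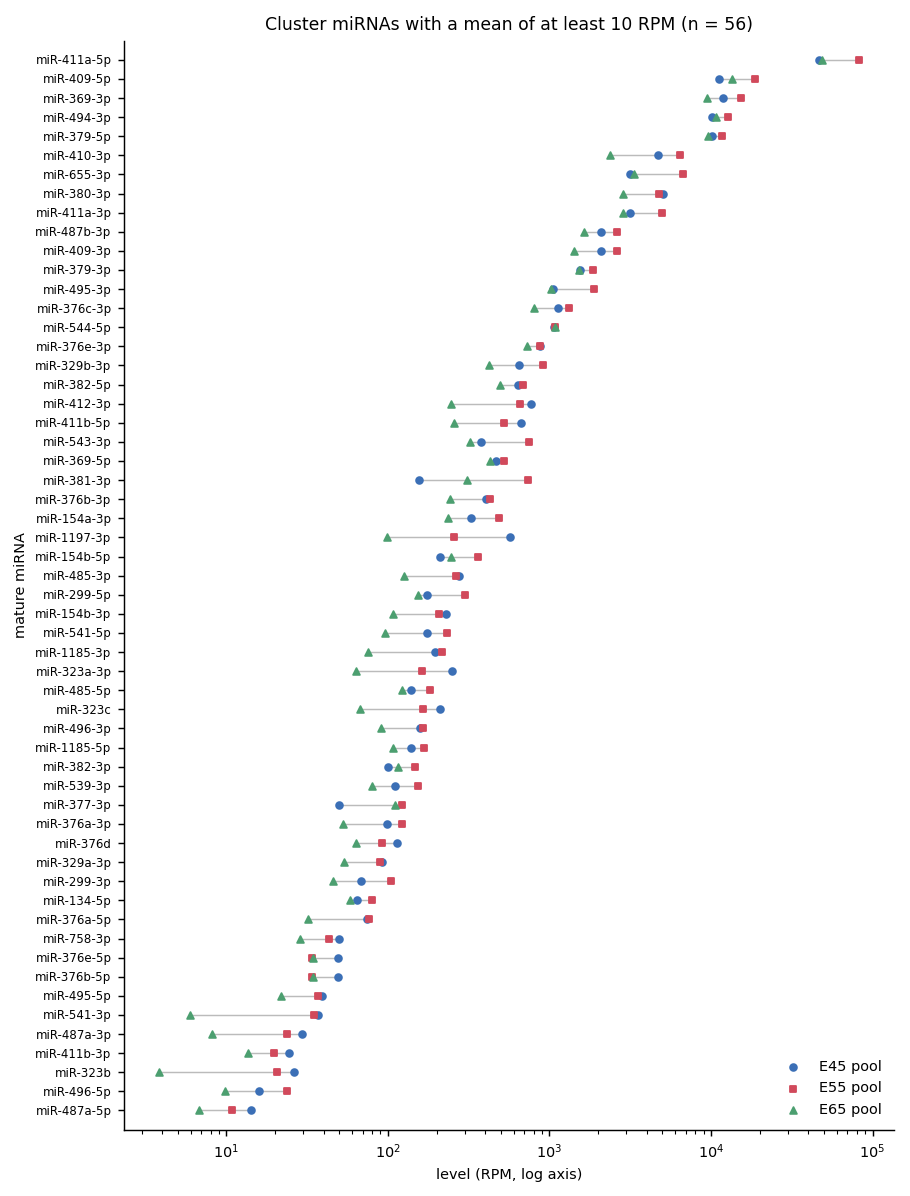
Level of each cluster miRNA with a mean of at least 10 RPM (56 of 79) in the 3 pooled libraries, on a log axis in RPM; circles are E45, squares E55 and triangles E65, and grey lines join the lowest and the highest library. Levels reach 82954 RPM (miR-411a-5p at E55), squares lie at the right end of 35 of the 56 lines, and a triangle does so for 1.

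Behind miR-411a-5p, 4 members lay between 9385 and 18775 RPM. miR-409-5p was measured at 11221, 18775 and 13446 RPM at E45, E55 and E65, and miR-369-3p at 11873, 15339 and 9385 RPM. miR-494-3p had 10088, 12824 and 10799 RPM. miR-379-5p, from the first hairpin of the cluster, had 10099, 11696 and 9537 RPM. All 4 were highest at E55, by ratios over E45 from 1.16 for miR-379-5p [1.141, 1.176] to 1.67 for miR-409-5p [1.650, 1.696]. Between E45 and E65 their directions were mixed and rested on the scaling. miR-409-5p and miR-494-3p were higher at E65, but lower with log2 ratios of -0.015 and -0.18 when scaled to the sheep-named miRNAs outside the cluster, and miR-379-5p and miR-369-3p were lower, but higher by 0.32 and 0.059 when scaled to the common median.

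The next 10 members by mean level lay between 801 and 6728 RPM. miR-655-3p was measured at 3140, 6728 and 3322 RPM, and miR-411a-3p at 3131, 5006 and 2867 RPM. miR-495-3p had 1052, 1882 and 1027 RPM. For these 3 the E55 library stood out as a peak, with E45 and E65 close to each other. miR-410-3p differed, with 4716, 6389 and 2361 RPM, since its E65 level was 0.369 times that at E55 [0.359, 0.380] and 0.501 times that at E45 [0.485, 0.517]. miR-380-3p had 5057, 4759 and 2838 RPM, and was slightly lower at E55 than at E45 as deposited but higher by 0.17 on the log2 scale under the common median. miR-487b-3p (2079, 2617 and 1626 RPM), miR-409-3p (2092, 2633 and 1418 RPM), miR-379-3p (1543, 1865 and 1515 RPM) and miR-376c-3p (1126, 1320 and 801 RPM) again had their highest value at E55. miR-544-5p was the steadiest of the 15, with 1067, 1086 and 1086 RPM and a ratio of E65 to E45 of 1.02 [0.964, 1.076]. Of the 15 members with the highest mean level, 13 were highest at E55, 1 at E45 and 1 at E65.

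E55 vs. E45 asks what differed as the skin approached follicle formation. On the log2(RPM + 1) scale, which understates the ratios of low members, 53 cluster miRNAs were higher at E55, 25 lower and 1 equal, and the median log2 ratio was 0.27. Over all 649 listed small RNAs the median was -0.25, so the cluster lay 0.52 above that median, or 0.23 above it with a pseudocount of 10 RPM. Most of the 649 are the 498 with only a locus label, whose median was -0.37. The 72 sheep-named miRNAs outside the cluster had a median of 0.07, nearer to that of the cluster. At least 2-fold higher at E55 were 6 members, or 7.59%, against 4.47% of all listed small RNAs, and 1 member was at least 2-fold lower, against 17.7%. Under the common median these counts were 13 (16.5%, against 8.17% of all listed) and 0 (against 12.6%). Among members with a mean of at least 10 RPM they were 3 (5.36%, against 3.49%) and 1 (1.79%, against 20.1%). For the 72 sheep-named miRNAs outside the cluster the shares as deposited were 5.56% at least 2-fold higher and 11.1% at least 2-fold lower. Under the common median their shares were 12.5% and 5.56%.

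Among members with at least 20 reads in 1 of the 2 libraries, the largest ratio belonged to miR-381-3p. It was measured at 156 RPM at E45, 732 RPM at E55 and 307 RPM at E65. E55 was 4.71 times E45 [4.229, 5.247], and E65 was still 1.97 times E45 [1.741, 2.240]. miR-377-3p had 49.7, 123 and 111 RPM, so it was 2.48 times higher at E55 [2.030, 3.045] and remained near that level at E65. miR-655-3p, given above, was 2.14 times higher [2.089, 2.198], and miR-543-3p, with 375, 743 and 322 RPM, was 1.98 times higher [1.839, 2.134]. These 4 are 3p forms from different hairpins with different seeds. The other 3 members past 2-fold were rare forms with few reads. miR-410-5p had 5 reads at E45 and 21 at E55, miR-655-5p had 3 and 15, and miR-1197-5p had 0 and 8.

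In the opposite direction, miR-1197-3p was measured at 569, 257 and 98.9 RPM. It was 0.451 times as high at E55 as at E45 [0.416, 0.489] and 0.385 times as high at E65 as at E55 [0.333, 0.444], the only member past 2-fold lower at the first step, where its log2 ratio was -1.14 as deposited and -0.88 under the common median. miR-323a-3p followed the same order of libraries at 248, 162 and 63.1 RPM, and miR-323c did so at 209, 165 and 67.4 RPM and miR-323b at 26.1, 20.6 and 3.84 RPM. The 3 related forms miR-323a-3p, miR-323b and miR-323c were therefore highest at E45, unlike most of the cluster. For miR-323b the interval of the ratio of E55 to E45 held 1, at 0.790 [0.565, 1.111]. The rare miR-323a-5p, with 6, 17 and 2 reads, was highest at E55. miR-376b-5p and miR-376e-5p were at 49.3, 33.9 and 34.5 RPM, a single value, because their listed sequences are identical and the reads of the 2 hairpins cannot be separated. miR-487a-5p had 14.3, 10.9 and 6.82 RPM.

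E65 vs. E55 covers the interval in which the first follicles form. Here 71 of the 79 members were lower at E65, 7 were higher and 1 was equal, with a median log2 ratio of -0.77 against -0.09 over all listed small RNAs. Of those 649 small RNAs 366 were lower at E65 and 274 higher. At least 2-fold lower were 29 members, or 36.7%, against 16.3% of all listed, and 1 was at least 2-fold higher, against 6.32%. With a pseudocount of 10 RPM 18 members, 22.8%, were at least 2-fold lower, against 8.01% of all listed, and the cluster median was -0.49. All 39 members named as 3p forms were lower at E65, with a median of -0.89. The 7 higher members were all 5p forms, but at ratios near 1 or with few reads. miR-544-5p and the identical miR-376b-5p and miR-376e-5p stood at 1.00, 1.02 and 1.02. The others, miR-154a-5p, miR-1197-5p, miR-1193-5p and miR-543-5p, had at most 8 reads in either library. Only 2, miR-1193-5p and miR-543-5p, remained higher once the libraries were scaled to the sheep-named miRNAs outside the cluster. This comparison shares the E55 library with E55 vs. E45, so a high reading in that library alone would move both.

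The lowest ratios came from modest or rare members. miR-541-3p had 37.1, 34.7 and 5.97 RPM at E45, E55 and E65, 0.172 times E55 [0.092, 0.299], and miR-323b stood at 0.186 times E55 [0.082, 0.371]. miR-1185-3p had 197, 216 and 75.5 RPM, and its E65 level was 0.349 times E55 [0.295, 0.411]. miR-487a-3p had 29.3, 23.8 and 8.10 RPM. For miR-410-5p, with 21 reads at E55 and 2 at E65, the ratio was 0.167 [0.019, 0.686]. Apart from miR-1185-3p these rest on few reads at E65. More abundant members with similar ratios were miR-410-3p and miR-412-3p (769.3, 655.9 and 244.8 RPM), with E65 at 0.369 and 0.373 times E55. At the upper end of the members with at least 20 reads in 1 of the 2 libraries, miR-544-5p, miR-376b-5p and miR-376e-5p stood at ratios of 1.00, 1.02 and 1.02. Next came miR-377-3p at 0.901 [0.773, 1.048] and its partner arm miR-377-5p, with 5.70, 11.2 and 9.81 RPM, at 0.880 [0.509, 1.482]. The single member past 2-fold higher, miR-543-5p, had 0, 3 and 8 reads.

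**Figure D2:**
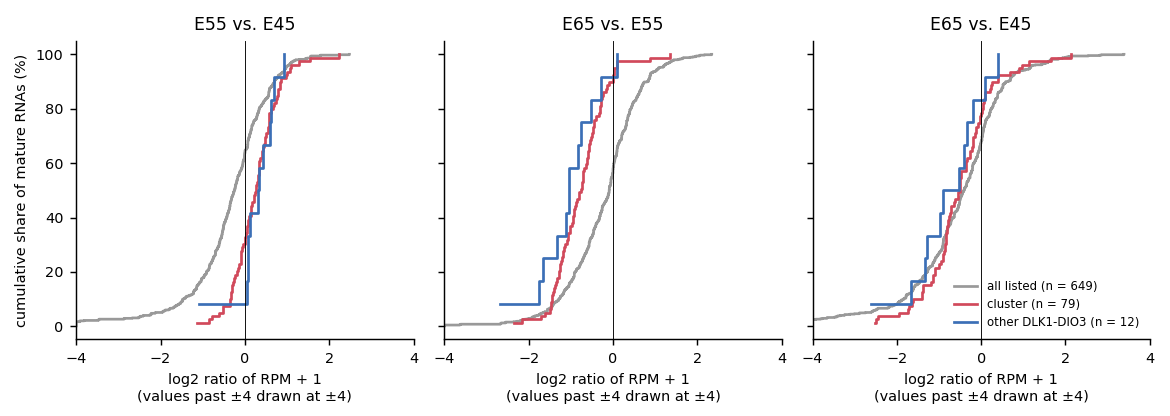
Cumulative share (%) of mature small RNAs at or below each log2 ratio of RPM + 1, in 1 panel for each comparison; red is the cluster (79), blue the 12 listed miRNAs with other numbers assigned to the DLK1-DIO3 region and grey all 649 listed small RNAs. The red curve crosses 50% at 0.27, right of the grey one, for E55 vs. E45, at -0.77, left of it, for E65 vs. E55, and at -0.50, near the grey value of -0.41, for E65 vs. E45.

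Over the whole interval, E65 vs. E45, 17 members were higher and 61 lower at E65, with a median log2 ratio of -0.50. Among all 649 listed small RNAs 207 were higher and 438 lower. All listed small RNAs had a median of -0.41, so the cluster lay 0.09 below them, a distance that ranged from 0.03 among small RNAs with a mean of at least 10 RPM to 0.25 with values under 3 reads set to 3 reads. At least 2-fold lower were 17 members, or 21.5%, against 26.8% of all listed, and 3 were at least 2-fold higher, against 5.86%. Of the 72 sheep-named miRNAs outside the cluster 15.3% were at least 2-fold lower. The counts depended on the scaling. Under the common median 32 members were higher and 46 lower, against 301 and 344 of all listed. The cluster median was then -0.16, and 11 members, 13.9%, were at least 2-fold lower, against 20.03% of all listed. Scaled to the sheep-named miRNAs outside the cluster, 8 members were higher and 70 lower, against 129 and 516 of all listed. The cluster median was then -0.77, and 32 members, 40.5%, were at least 2-fold lower, against 36.5% of all listed. miR-323b and miR-541-3p, with few reads at E65, had ratios of 0.147 [0.064, 0.297] and 0.161 [0.085, 0.284]. The more abundant miR-1197-3p stood at 0.174 [0.151, 0.200] and miR-323a-3p at 0.254 [0.211, 0.305]. Among members with at least 20 reads in 1 of the 2 libraries, miR-377-3p had the highest ratio, 2.23 [1.793, 2.791], followed by miR-381-3p at 1.97 and the rare miR-377-5p at 1.72 [0.848, 3.616], and miR-409-5p at 1.198 [1.179, 1.218] and miR-154b-5p at 1.18 [1.048, 1.334] came after them. The last pair turned to log2 ratios of -0.015 and -0.035 when scaled to the sheep-named miRNAs outside the cluster. The other members at least 2-fold higher, miR-543-5p and miR-1197-5p, had 0 reads at E45.

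Sorted by the library of the highest value, 49 of the 79 members, 62.0%, were highest at E55, against 26.7% of all listed small RNAs. Another 25 were highest at E45, where 51.3% of all listed small RNAs had their maximum, and 5 at E65, against 22%. Of the 72 sheep-named miRNAs outside the cluster 31.9% were highest at E45, 33.3% at E55 and 34.7% at E65. They are not a background free of the region. Of the 24 highest at E55, 14 belong to the 16 forms of the same region described below. Under the common median 74.7% of the members were highest at E55, against 29.6% of all listed and 33.3% of those 72, of which 47.2% were then highest at E65. Among the 56 members with a mean of at least 10 RPM the E55 library was the highest for 35, or 62.5%, against 24.1% of the 373 listed small RNAs at that level. At E45 it was 20, against 55.5%, and at E65 1, against 20.4%. A lower value at each step in turn was seen for 22 members, 27.8%, against 29.7% of all listed.

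The same order of libraries was seen outside the rule in the same region. Of 12 listed miRNAs with other numbers assigned to the DLK1-DIO3 region, a list without miR-3958 and miR-3959, 11 were highest at E55, and with the 4 forms of those hairpins it was 14 of 16. For the 12 the summed level was 21085, 33181 and 17651 RPM. Their median log2 ratios were 0.33 for E55 vs. E45, -1.04 for E65 vs. E55 and -0.73 for E65 vs. E45. miR-127, whose hairpin lies opposite the RTL1 gene, had 9994, 18872 and 10632 RPM. miR-431, from the same RTL1 antisense group, had 502, 525 and 81.5 RPM. By contrast, the 72 sheep-named miRNAs outside the cluster had medians of 0.07, 0.11 and -0.15. They include these 12 and the 4 forms of miR-3958 and miR-3959, and no median was computed without them. let-7, a family known to increase as tissues mature, had medians of 0.96, 0.45 and 1.59 over 7 listed forms, while their sums gave smaller ratios of 1.49, 1.04 and 1.54. The most abundant form, let-7i, had 18886, 31123 and 28325 RPM. miR-17-92 and its paralogues, known for high levels in dividing cells, had -1.57, 0.60 and -0.90 over 5 forms. Their summed level went the other way for E65 vs. E45, with a ratio of 1.43, since miR-19b held most of the reads at 7282, 4965 and 11900 RPM.

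Marker miRNAs of other cell types also differed between the libraries. The listed muscle marker, miR-133, the single one found of 6, had 3106, 6623 and 2013 RPM, thus the same E55 maximum as the cluster. Epidermal markers, 3 found of 7, summed to 118.5, 198.99 and 759.1 RPM, of which miR-200b was the most abundant at 76.6, 121 and 451.2 RPM, while miR-200a never passed 3 reads. Mesenchymal markers, 4 found of 7 and led by miR-143, summed to 113124, 113003 and 138005 RPM. At E55 vs. E45 the log2 ratio of miR-143 was 0.29, while those of miR-10a, miR-10b and miR-199a-3p were -0.84, -0.77 and -0.53. The neural list had 1 of 5 listed, miR-218a, at 3425, 1072 and 1340 RPM, and the leukocyte list 1 of 4, miR-150, at 6.11, 8.24 and 13.7 RPM. Neither the 3 erythroid markers nor the single endothelial one were listed. The part of muscle, epidermis or any other cell type in the cluster's course was not tested.

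Along chromosome 21 the more abundant arm of each of the 35 placed hairpins was compared in RefSeq order. At E55 vs. E45, 23 were higher and 12 lower, and 6 of the 12 lower ones were among the 7 neighbours from miR-380 to miR-329a, a stretch picked out after its values were seen. Their median log2 ratio was -0.19, against 0.30 for the 28 others. Under the common median 3 of the 7 were lower, and the medians were 0.07 and 0.56. Within the stretch miR-329b-3p was the exception, with 652, 907 and 424 RPM. Directly beside it, miR-411a-5p and miR-494-3p were higher at E55, and so were miR-543-3p and miR-495-3p, the next hairpins in order. At E65 vs. E55, 34 of the 35 were lower, against 366 of all 649 listed small RNAs. The other was miR-544-5p, at a ratio of 1.00, though it too was lower (log2 ratio -0.23) when scaled to the sheep-named miRNAs outside the cluster. The hairpins of miR-1193, miR-299, miR-323c, miR-539, miR-541, miR-654 and miR-668 had no match by name.

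**Figure D3:**
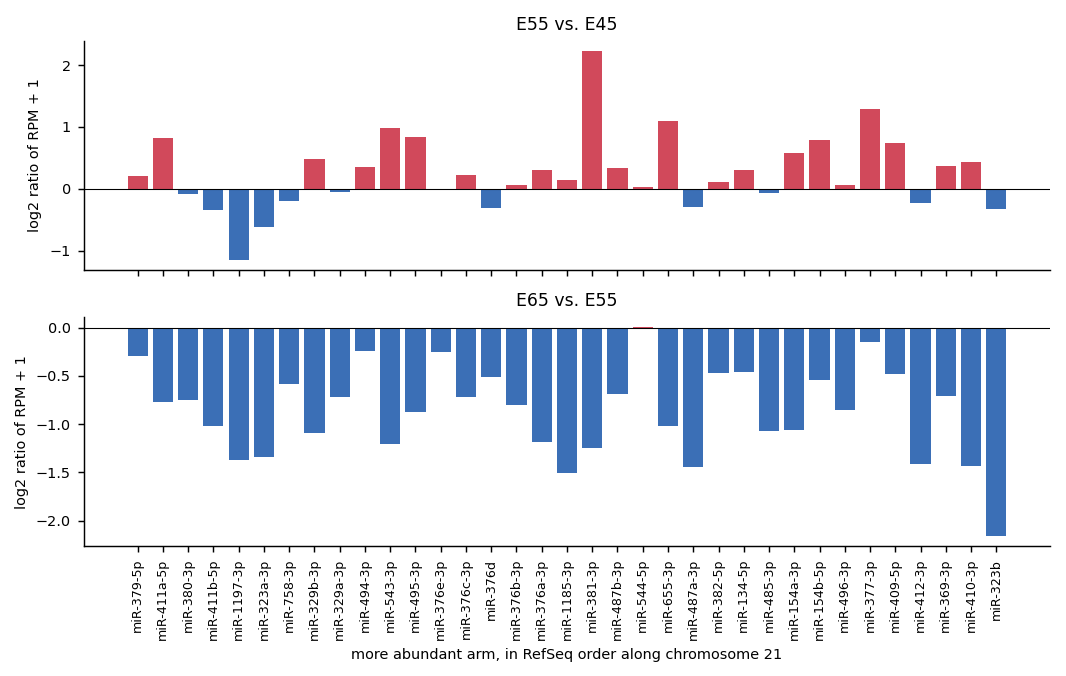
Log2 ratio of RPM + 1 for the more abundant arm of 35 hairpins in RefSeq order along chromosome 21, with E55 vs. E45 above and E65 vs. E55 below; red bars are above 0 and blue bars below. In the upper panel 23 bars are red, with miR-381-3p tallest at 2.23, and blue bars gather between miR-380-3p and miR-329a-3p, while 34 of the 35 lower bars are blue.

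Both arms were listed for 37 hairpins, and 34 of them had at least 20 reads over both arms in each library. The 3p arm had more reads in every library for 23 of the 34, the 5p arm for 9, and the side changed for 2. For 21 hairpins 1 arm held over 90% of the reads in every library, the 3p arm in 17 and the 5p arm in 4. Even so, 5p forms supplied 57.99, 63.2 and 64.25% of the cluster's reads, since miR-411a, miR-409 and miR-379 all favoured their 5p arm. The 5p share of miR-411a was 93.7, 94.3 and 94.4%, and that of miR-379 was 86.7, 86.2 and 86.3%. miR-544 used its 5p arm at 99.7, 99.6 and 99.6%, and miR-380, miR-410, miR-487b, miR-494 and miR-655 kept theirs below 1% in each library.

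The difference between the highest and the lowest 5p share passed 10 percentage points for 5 hairpins. Its median was 1.50 points, a measure with little room to move in the 21 hairpins that used 1 arm for over 90% of reads. The 5p share of miR-154b was 47.7% [44.698, 50.756] in the E45 library, 63.5% [61.538, 65.476] in the E55 library and 69.8% [66.508, 72.869] in the E65 library. miR-1185 had 41.3% [37.924, 44.763], 43.7% [41.190, 46.136] and 58.6% [53.816, 63.353], so these 2 changed from a 3p to a 5p majority. miR-485 went from 33.5 to 41.0 and 49.4%, and miR-541 from 82.5 to 87.0 and 94.2%. The fifth, miR-487a, had 32.7, 31.5 and 45.7%, on 35 reads at E65. The abundant miR-409 had 84.3% [83.887, 84.679], 87.7% [87.481, 87.916] and 90.5% [90.144, 90.764]. In these 6 the 5p share was highest at E65.

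Between E45 and E65 the 5p share was higher for 17 hairpins and lower for 17, many of them by less than their intervals. The intervals of the 2 libraries lay apart for 11 hairpins, with the 5p share higher at E65 in 9. Some of the 9 differed little, by 0.73 points for miR-411a, 0.59 for miR-369, 1.05 for miR-543 and 2.11 for miR-1197. The 5p forms of miR-543 and miR-1197 had 0 reads at E45 and 8 and 5 at E65. The 2 that were lower were miR-495, at 3.58, 1.92 and 2.07%, and miR-382, at 86.4, 82.4 and 81.0%. Among 10 sheep-named hairpins outside the cluster with as many reads, the 5p share was higher at E65 for 6, and the intervals lay apart for 3, with 1 of these higher at E65. That one, miR-3959, and miR-3958 lie between cluster hairpins in RefSeq order, and without them the share was higher for 5 of 8, with the intervals apart for 2, both lower at E65. These 2, miR-493 and miR-665, and also miR-370 and miR-433, belong to the DLK1-DIO3 region themselves.

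**Figure D4:**
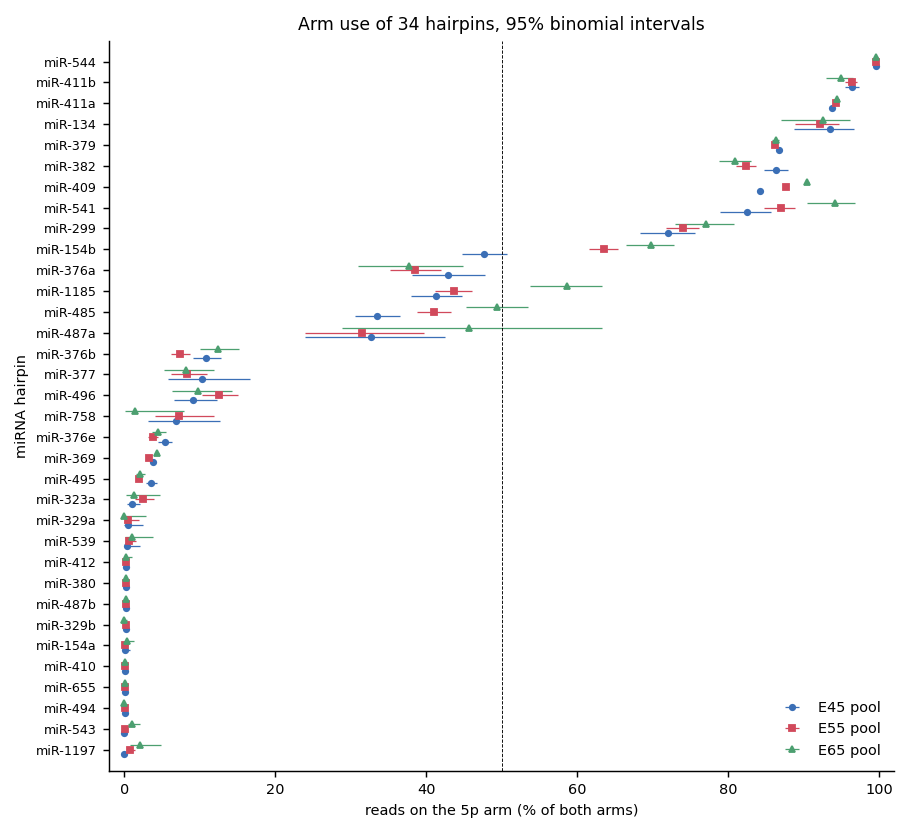
Reads on the 5p arm as a percentage of the reads on both arms for 34 hairpins, ordered by the E45 value; circles are E45, squares E55 and triangles E65, bars are exact 95% binomial intervals and the dashed line marks 50%. Most hairpins lie near one edge with overlapping points, while the points of miR-154b and miR-1185 cross the dashed line.

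Across the 79 members there were 68 different seeds. Of these, 59 belonged to 1 member each and 9 were shared by 20 members. miR-379-3p and miR-411a-3p, with the seed ATGTAAC, summed to 4675, 6871 and 4382 RPM and both were highest at E55. miR-411b-5p and miR-412-3p share GGTCGAC although they come from opposite arms of separate hairpins. miR-411b-5p had 669, 527 and 258 RPM, and with miR-412-3p the seed's total was 1438, 1183 and 503 RPM, lower at each step, although miR-412-3p alone was higher at E55 than at E45 (log2 ratio 0.03) under the common median. In the pair with ACATAGA, miR-376c-3p and miR-376e-3p, the total was 2001, 2191 and 1531 RPM. miR-376a-3p, miR-376b-3p and miR-376d summed to 619, 640 and 360 RPM, but at E55 vs. E45 miR-376d was lower (log2 ratio -0.31) and miR-376a-3p higher (0.30). In all, 4 pairs of members differ by at most 1 base, namely miR-376a-3p with miR-376b-3p and with miR-376d, miR-329a-3p with miR-329b-3p, and the identical miR-376b-5p and miR-376e-5p. The split of reads within these pairs is uncertain.

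The remaining shared seeds followed no single course. miR-154a-3p, miR-154b-3p and miR-539-3p, with ATCATAC, summed to 667, 850 and 422 RPM, and miR-154b-3p alone had 229, 207 and 107 RPM. miR-329a-3p and miR-329b-3p, with ACACACC, summed to 744, 996 and 478 RPM, most of it listed under miR-329b-3p. miR-485-3p and miR-487a-3p, with TCATACA, summed to 305.8, 287.5 and 133.1 RPM, mostly from miR-485-3p at 277, 264 and 125 RPM. The 5p forms of miR-329a and miR-329b share AGGTTTT but were at or near 0 in all libraries. The seed GTGGATA belongs to the identical 5p forms of miR-376b and miR-376e.

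In sequence the members differed from other listed miRNAs mainly in the first base. The sets are unlike, since both arms were listed for 37 hairpins of the cluster and for 10 sheep-named hairpins outside it. The part of the less abundant arms in this difference was not tested. A was the first base of 50.6% of the 79 members, against 33.3% of the 72 sheep-named miRNAs outside the cluster and 38.8% of all listed small RNAs. T came first in 27.8%, against 55.6% and 39.8%. Within the cluster A led 56.4% of the 3p forms and 45.9% of the 5p forms. The median length was 22 bases in each of these sets, and the median GC content was 43.5% in the cluster and 45.5% in the named miRNAs outside it.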

How the data were processed

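The deposited table gives reads per 1000000 reads (RPM, called TPM by the authors) with 2 decimals for 649 small RNAs, 1 pooled library per stage. Per the labels, libraries were adaptor-ligated and size-selected on a gel, and the submitters' processing notes name Bowtie. Its version, the genome build and the handling of reads with several matches are not given in the sources used here. Low RPM values were whole multiples of 1 step per library, and dividing by it gave whole reads (within 0.1) for 100% of values above 0. Ratios used RPM; log2 ratios used a pseudocount of 1 RPM and no filter. With 1 library per stage no count test was run. Share intervals were Clopper-Pearson and ratio intervals conditional binomial, both at 95% (Python 3.11.15, SciPy 1.17.1). Scripts were tested on simulated data. The deposited mRNA table was not used here.

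The naming rule uses no measured value, but the cluster and the lists were chosen for description with earlier results of these data known. Named were the 15 members with the highest mean RPM, the 5 largest rises and 5 largest falls per comparison among members with at least 20 reads in 1 of the 2 libraries, hairpins with at least 20 reads over both arms in every library, members sharing a seed and the listed miRNAs of the comparison and marker lists. miR-323c, outside this rule, was named after its values were seen. Alternatives were another pseudocount, scaling, filter, fold or floor of 3 reads. One, counting identical sequences once, was chosen after seeing the data.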

Additional observations from a re-analysis of the deposited data

Results flagged for a closer look

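In all, 5 listed small RNAs outside the naming rule were set apart because they lie within the cluster or match a member. In RefSeq order the hairpins miR-3958 and miR-3959 lie between members. miR-3958-3p had 2126, 2381 and 1305 RPM at E45, E55 and E65, miR-3958-5p 2.85, 1.70 and 0.85 RPM, miR-3959-3p 2360, 2728 and 1267 RPM and miR-3959-5p 1351, 1706 and 1514 RPM, so 3 of these 4 were highest at E55. The 5p share of miR-3959 was 36.4, 38.5 and 54.4%, a change of majority arm like those of miR-154b and miR-1185. A small RNA without a sheep name, labelled by a chromosome 21 locus, has a sequence contained in that of miR-299-5p and was measured at 4.48, 9.45 and 2.13 RPM.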

How the results depend on the processing

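No paired analysis was possible because each stage is 1 pooled small RNA library, which also means that no replicate could be left out. Depth limits the rare forms: 15 members were at or under 3 reads at E65. The sign of each cluster median held under each alternative. Under median scaling the cluster medians were 0.49 (E55 vs. E45) and -0.16 (E65 vs. E45), and the summed ratios 1.80, 0.687 (E65 vs. E55) and 1.24. The members at least 2-fold higher and lower were then 13 and 0 for E55 vs. E45 (16.5 and 0%, against 8.17 and 12.6% of all listed). For E65 vs. E45 they were 5 and 11 (6.33 and 13.9%, against 9.09 and 20.03%). Scaling to the sheep-named miRNAs outside the cluster gave summed ratios of 1.45, 0.534 and 0.775. For E65 vs. E45 it gave a median of -0.77 with 32 members at least 2-fold lower (40.5%, against 36.5% of all listed). The cause of these shifts was not tested. Log2 ratios that changed sign, among all members with a deposited ratio whose interval excluded 1, were, under median scaling, miR-380-3p (0.17) and miR-412-3p (0.032) at E55 vs. E45 and, at E65 vs. E45, miR-369-3p (0.059), miR-379-5p (0.32), miR-411a-3p (0.27), miR-487b-3p (0.045), miR-543-3p (0.18), miR-376e-3p (0.14), miR-382-5p (0.031) and miR-1185-5p (0.027), and under the sheep-named scaling, at E65 vs. E45, miR-411a-5p (-0.21), miR-409-5p (-0.015), miR-494-3p (-0.18), miR-655-3p (-0.19) and miR-154b-5p (-0.035). Members whose interval held 1 or could not be computed changed sign in 8 (E55 vs. E45) and 7 (E65 vs. E45) cases under median scaling and in 2, 5 and 4 cases in the 3 comparisons under the sheep-named scaling. With the floor of 3 reads the rare miR-539-5p changed sign at E55 vs. E45 (-0.17) and E65 vs. E55 (0.21). Without miR-411a-5p the summed ratios were 1.34, 0.656 and 0.876. A pseudocount of 0.5 RPM gave 2 members lower for E55 vs. E45 and 2 higher for E65 vs. E55, with no share of all listed small RNAs computed. A pseudocount of 10 RPM gave 3 higher (3.80%, against 1.69% of all listed) with a median of 0.12 for E55 vs. E45. For E65 vs. E55 it gave 0 higher (against 3.54%) and 18 lower (22.8%, against 8.01%) with a median of -0.49. For E65 vs. E45 it gave 1 higher (1.27%, against 2.47%). With a mean of at least 10 RPM required, 3, 0 and 1 members were higher in the 3 comparisons. These were 5.36, 0 and 1.79%, against 3.49, 6.70 and 4.56% of the 373 listed small RNAs at that level. With the floor of 3 reads 1 was higher for E65 vs. E45, with no share of all listed computed. At 1.5-fold, 17, 2 and 6 members were higher and 4, 51 and 37 lower, with no share of all listed small RNAs computed. At 4-fold these were 1, 0 and 1 higher and 0, 2 and 3 lower, again without that share. Neither set of counts therefore compares the cluster with other small RNAs. With the sheep-named miRNAs as denominator the cluster's shares were 23.7, 31.1 and 19.4%. The median 5p share, 7.98, 7.31 and 6.32%, was 5.56% at E55 for hairpins with at least 100 reads and 4.52% at E65 over all hairpins with a read.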
